A study of Rattus norvegicus with 119 samples.

Results

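The genes Arc, Npas4, Nr4a1, Nr4a2, Nr4a3, Dusp1, Dusp6, Ptgs2 and Homer1 are activity genes, whose RNA neurons make within minutes to hours of firing. They were followed here through the hippocampus of young adult rats after lead in early life. Members were all probe sets whose only gene symbol was one of these 9, which gave 9 probe sets, 1 per gene, of 29214 on the array. All 9 lay above the 40th percentile of mean level over the probe sets.

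The study measured total RNA of whole, flash-frozen hippocampus from 40 Fischer, 40 Long Evans and 39 Sprague Dawley rats, with an Affymetrix Rat Gene ST array (version 1.0) for each animal. Males and females of each strain ate control food (0 ppm lead) or food that held 250 or 750 ppm of lead acetate. In the perinatal groups the dams ate lead food from 10 days before breeding until weaning, and the pups then ate control food. In the postnatal groups lead food ran from birth to postnatal day 45 and control food followed, and all tissue was taken on postnatal day 55, so every exposed animal had been off lead food before dissection. Strain, sex and treatment made 30 groups of 4 animals, apart from the Sprague Dawley male controls with 3. Litters were not in the labels, so p-values measure the spread between animals and treat siblings, if there were any, as independent.

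Activity genes work as a relay from synapse to nucleus. Calcium entry through glutamate receptors and voltage-gated channels activates kinases, among them the MAP kinase ERK, and these act on the transcription factors CREB and SRF already bound at the genes. Some products are themselves transcription factors (Npas4 and the orphan nuclear receptors Nr4a1, Nr4a2 and Nr4a3), some act at the synapse (Arc in the removal of AMPA receptors, Homer1 in the scaffold of metabotropic glutamate receptors), and some limit the signal (the phosphatases Dusp1 and Dusp6, which switch off MAP kinases). Ptgs2 encodes cyclooxygenase-2, which makes prostaglandins and in the hippocampus is found in excitatory neurons. Because their RNA follows recent firing, such genes are widely read as a record of the time before death.

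Promoters are shown for the genes on which the Fischer dose comparison turns, as far as the RefSeq table (build GRCr8) held them. It held 300-base windows around an annotated start for 7 of the 9 genes, Arc and Nr4a3 aside. For Npas4, Nr4a1 and Nr4a2 that window lay well inside the gene body (positions below), and other starts of a gene were not searched. Capitals mark TGACG on either strand, the core of the cAMP response element (CRE) TGACGTCA that CREB binds. Dusp1 (chr10:17184603-17184902, plus strand) is shown with Nr4a1 (chr7:134259888-134260187, plus strand), Npas4 (chr1:211716053-211716352, minus strand) and Ptgs2 (chr13:64713813-64714112, plus strand).
Dusp1: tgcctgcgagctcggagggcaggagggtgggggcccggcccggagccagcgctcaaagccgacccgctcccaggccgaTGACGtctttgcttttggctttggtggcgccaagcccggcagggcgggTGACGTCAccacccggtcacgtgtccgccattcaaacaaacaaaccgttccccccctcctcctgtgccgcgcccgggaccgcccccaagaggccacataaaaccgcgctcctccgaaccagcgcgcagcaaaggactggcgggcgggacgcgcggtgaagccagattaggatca
Nr4a1: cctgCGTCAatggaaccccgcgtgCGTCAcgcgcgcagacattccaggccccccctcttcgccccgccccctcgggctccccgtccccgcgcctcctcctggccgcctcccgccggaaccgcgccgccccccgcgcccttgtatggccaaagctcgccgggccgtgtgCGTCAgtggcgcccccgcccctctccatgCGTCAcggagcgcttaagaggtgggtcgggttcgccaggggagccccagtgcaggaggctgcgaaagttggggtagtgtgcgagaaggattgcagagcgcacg
Npas4: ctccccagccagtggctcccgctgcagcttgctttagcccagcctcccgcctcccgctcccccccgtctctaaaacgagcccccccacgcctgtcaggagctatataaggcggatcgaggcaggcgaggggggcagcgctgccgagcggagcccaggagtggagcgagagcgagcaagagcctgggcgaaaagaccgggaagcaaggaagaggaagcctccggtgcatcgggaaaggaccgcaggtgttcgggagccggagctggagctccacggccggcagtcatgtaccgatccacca
Ptgs2: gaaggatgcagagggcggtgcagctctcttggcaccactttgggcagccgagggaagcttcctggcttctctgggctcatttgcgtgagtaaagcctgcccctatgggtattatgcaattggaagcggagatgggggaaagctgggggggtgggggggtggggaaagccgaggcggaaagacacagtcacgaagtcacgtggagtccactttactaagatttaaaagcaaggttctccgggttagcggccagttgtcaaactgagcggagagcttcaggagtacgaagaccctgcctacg
The whole CRE stood in the Dusp1 window only, from base -124 to -117 relative to the annotated start, and in 1.83% of all 33469 promoters of that length. The core TGACG, searched on both strands and counted also inside a whole CRE, stood in 3 of the 7 windows and in 21.2% of all promoters. Nr4a1 held 4 of them (first bases at -246, -226, -82 and -53), Dusp1 held 3 (at -172, -124 and -121, the latter pair being the whole CRE read on each strand) and Nr4a2 held 1 (at -8). The AP-1 site TGANTCA (7.33% of promoters), the Nr4a response element AAAGGTCA (1.43%) and the CArG box that SRF binds (1.64%) were in none of the 7. A match or its absence describes the letters of these windows and no binding.

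In the same build the gene bodies lie at chr7:108444959-108448413 (Arc), chr1:211710640-211728038 (Npas4), chr7:134247153-134268044 (Nr4a1), chr3:62098739-62115926 (Nr4a2), chr5:67157141-67198287 (Nr4a3), chr10:17184853-17187646 (Dusp1), chr7:35979502-35983834 (Dusp6), chr13:64714063-64722320 (Ptgs2) and chr2:26279012-26388279 (Homer1). Only gene-level values were used, so the short activity-induced form of Homer1 could not be told from the long, steadily made form.

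The arrays were alike in range: the correlation of array pairs over all probe sets lay between 0.979 and 0.997. The mean level of 9 hippocampal neuron markers (such as Prox1, Wfs1 and Neurod6) lay between 11.12 and 11.49 on every array, and that of 3 neocortical markers between 9.13 and 9.72. Choroid plexus, a secretory tissue beside the hippocampus, varied most: the mean of its 13 markers ran from 6.57 to 10.36. In 8 arrays the X-linked genes (Eif2s3, and the mean of Ddx3x and Pbdc1) lay on the side of the sex opposite to the label, and no Y-linked symbol was matched. They were Long Evans male control 4 and female controls 1 and 3 and, in Sprague Dawley, female control 2 and 4 animals at 750 ppm (perinatal male 4, postnatal male 2, postnatal females 2 and 4). Labels were kept, and results that change without these arrays are given both ways. Within each group the animals with lower and with upper label numbers formed sets that differed widely: in Fischer 60.9% of probe sets were called between them, in Sprague Dawley 18.9%, and in Long Evans 0.0993%. The main fits had no term for these sets, so the spread between animals behind their SEs and p-values includes this difference.

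Values are log2 levels, so a difference of 1 is a doubling of signal. A gene is called below when limma's moderated test, adjusted by Benjamini-Hochberg over all 29214 probe sets, gave an adjusted p under 0.05. Errors beside differences are standard errors (SE) from limma. The share of all probe sets called in the same comparison of the main fits is given as the background for counts of called members. It counts adjusted calls, so it is no background for counts of members at an unadjusted p under 0.05. For those counts, and for calls under other settings, the share over all probe sets is not given here. For statements on how far the animals of groups overlapped, no such share over all probe sets was counted. In whole tissue, fewer cells of a type and less RNA per cell cannot be told apart.

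**Figure D1:**
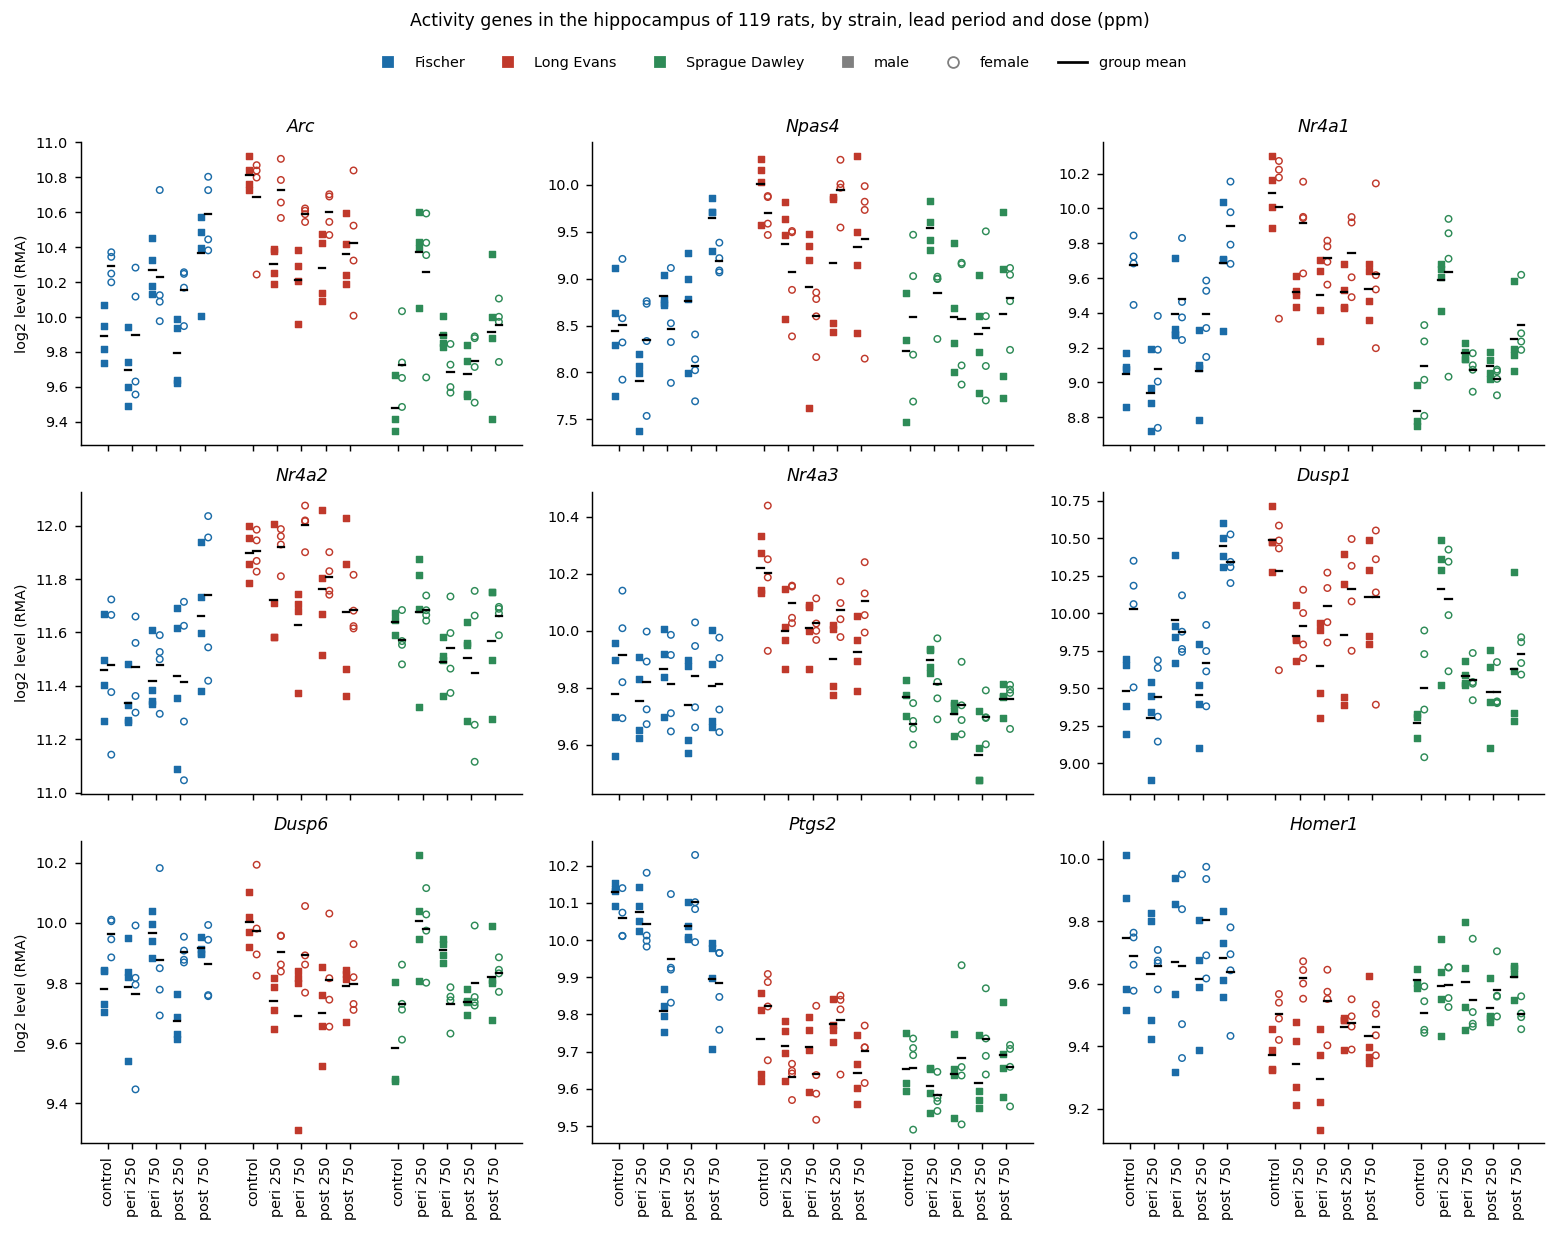
Log2 level of each gene in every animal by strain and treatment (squares are males, open circles females, short lines group means; peri and post are the perinatal and postnatal groups, with lead in ppm). Arc, Npas4, Nr4a1, Nr4a2 and Nr4a3 were highest in Long Evans groups, while 9 of the 10 highest group means of Ptgs2 and of Homer1 were Fischer.

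Across all animals the genes differed most in how far individuals of one group lay apart. Npas4, a transcription factor induced almost only by neuronal calcium signals, had a within-group standard deviation of 0.56, wider than 99.7% of all probe sets, and ran from 7.38 to 10.31 over all animals. Dusp1 followed at 0.30, wider than 94.5% of probe sets, with Nr4a1 and Arc at 0.22 each (87.3% and 87.1%). Ptgs2 was the tightest of the 9, at 0.092, wider than 12.2% of probe sets. The spread of Nr4a2 was 0.19, of Homer1 0.14 and of Nr4a3 and Dusp6 0.13. So, by this pooled spread, the genes counted together as activity genes spanned nearly the whole scale of within-group variation on the array. The spread also holds the difference between label-number sets, and it varied by strain. Homer1 stood at 0.19 in Fischer, 0.093 in Long Evans and 0.094 in Sprague Dawley, and Nr4a3 at 0.16, 0.12 and 0.082. Nr4a2 was also widest in Fischer, while Npas4, Dusp1 and Ptgs2 were tightest there.

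In the order of the 30 group means the strains were unevenly placed for most genes. Among the 10 highest group means, Long Evans held 9 for Nr4a3, 8 for Nr4a2, 7 for Arc and for Npas4, 6 for Nr4a1 and for Dusp1, 3 for Dusp6, 1 for Ptgs2 and 0 for Homer1. Fischer held 9 of the 10 highest for Ptgs2 and for Homer1. Dusp6 showed no such placing, with 3 of its 10 highest means in Long Evans, 4 in Fischer and 3 in Sprague Dawley. The lowest mean of Arc (9.48), Nr4a1 (8.84), Dusp1 (9.27) and Dusp6 (9.59) was in every case that of the Sprague Dawley male controls. The highest mean of Arc (10.81), Npas4 (10.01), Nr4a1 (10.09), Nr4a3 (10.22) and Dusp1 (10.49) was that of the Long Evans male controls. Treatment entered the order too: the next means of Dusp1 were those of Fischer males (10.45) and females (10.34) after postnatal 750 ppm.

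Neighbours in these orders mostly lay within the SE of a difference from each other. Sorting so many means leaves small steps between neighbours whatever the differences between groups, so these steps do not test the order. They do not show that groups farther apart in it were alike. Of the 29 steps between neighbouring group means, 3 exceeded the SE of a difference for Arc, 2 for Nr4a3, 1 each for Nr4a1 and Ptgs2, and none for Npas4, Nr4a2, Dusp1, Dusp6 or Homer1. The widest step of Arc was 0.20, against an SE of a difference of 0.15, and that of Npas4 was 0.25, against 0.40. Npas4 ran from 7.91 in Fischer males after perinatal 250 ppm to 10.01 in Long Evans male controls. For Nr4a2, a nuclear receptor also known for its role in dopamine neurons, the lowest mean was 11.34 (Fischer male perinatal 250 ppm), and the highest (Long Evans female perinatal 750 ppm) lay 0.67 above it. Homer1 ran from 9.30 in Long Evans male perinatal 750 ppm to 9.80 in Fischer female postnatal 250 ppm, Ptgs2 from 9.58 in Sprague Dawley female perinatal 250 ppm to 10.13 in Fischer male controls, and Dusp6 only from 9.59 to 10.01.

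Among the controls, which never ate lead food, the strains differed in most of these genes. Long Evans controls exceeded Sprague Dawley controls in Arc, Npas4, Nr4a1, Nr4a2, Nr4a3, Dusp1 and Dusp6, by up to 1.45 ± 0.29 (log2, SE) for Npas4, and exceeded Fischer controls in the same genes apart from Dusp6. Sprague Dawley controls lay below Fischer controls in Arc, Nr4a1, Dusp6 and Ptgs2. Ptgs2 and Homer1 ran the other way in Long Evans, below Fischer. These comparisons were broad over the genome: 24.5% of all probe sets were called between Long Evans and Sprague Dawley controls, 25.1% between Long Evans and Fischer and 10.5% between Sprague Dawley and Fischer, against 7, 8 and 4 of the 9 members.

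Arc, the effector at the synapse, lay between 10.24 and 10.92 in the 8 Long Evans controls, with a mean 1.15 ± 0.11 above that of the 7 Sprague Dawley controls (9.35 to 10.03; adjusted p = 3.46e-14). Dusp1 had means of 10.38 and 9.38 in the same order (SE of the difference 0.15, adjusted p = 2.70e-07). Nr4a1 differed by 1.08 ± 0.11 (5.42e-13), Npas4 by 1.45 ± 0.29 (6.16e-05), Nr4a3 by 0.49 ± 0.07 (4.94e-09), Dusp6 by 0.33 ± 0.07 (6.11e-05) and Nr4a2 by 0.30 ± 0.10 (0.0155). All 8 Long Evans controls lay above every Sprague Dawley control for Arc, Nr4a1, Nr4a2 and Nr4a3, and 7 of 8 did for Npas4, Dusp1 and Dusp6. How many other probe sets separated these controls as fully was not counted. Against Fischer controls, Long Evans controls were higher by 1.38 ± 0.28 in Npas4, 0.69 ± 0.11 in Nr4a1, 0.66 ± 0.11 in Arc, 0.63 ± 0.15 in Dusp1, 0.43 ± 0.09 in Nr4a2 and 0.36 ± 0.06 in Nr4a3. Ptgs2 went down by -0.32 ± 0.05 and Homer1 by -0.28 ± 0.07 in the same comparison, with all 8 Long Evans controls below every Fischer control for Ptgs2. Between Sprague Dawley and Fischer controls the differences were -0.49 ± 0.11 for Arc, -0.39 ± 0.11 for Nr4a1, -0.21 ± 0.07 for Dusp6 and -0.44 ± 0.05 for Ptgs2. The call of Dusp6 was lost without any of 3 Sprague Dawley controls (males 1 and 2, female 1; adjusted p up to 0.0907). Within lower and within upper label numbers the called differences kept their direction, but sizes moved: Npas4 differed between Long Evans and Sprague Dawley by 2.31 and 0.77, and Nr4a1 between Sprague Dawley and Fischer by -0.62 and -0.19. Of the Sprague Dawley male controls, the lower set held only male control 1. The strains were held in separate runs of label numbers, so strain and run cannot be told apart here.

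In Fischer rats 5 of the 9 genes differed between the 2 doses of lead. At 750 ppm Dusp1 was 1.61-fold, Npas4 1.69-fold, Nr4a1 1.41-fold and Arc 1.39-fold higher than at 250 ppm, and Ptgs2 was lower by a factor of 1.13 (16 animals against 16, both sexes and periods). Of these 5 calls, 4 were higher and 1 was lower, where 0.0719% of all probe sets (21) were called. The median difference of the 9 members was 0.16, beside -0.0043 over all probe sets. The same comparison between the doses called no member in Long Evans (background 0.0548%) or Sprague Dawley (0.00342%), where limma gave none of the 9 an unadjusted p under 0.05 either. In Sprague Dawley this mean joined differences of opposite sign. After perinatal lead Arc differed by -0.47 in males and -0.57 in females, and after postnatal lead by 0.24 and 0.21. Nr4a1 differed by -0.42 and -0.56, then by 0.15 and 0.31. Ptgs2 and Homer1 did not divide by period in this way. A difference between the periods in this was not tested.

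Dusp1, a nuclear phosphatase that switches off MAP kinases and the one gene of the 7 windows with a whole CRE, ran from 8.89 through a median of 9.49 to 9.92 in the 16 Fischer animals at 250 ppm. At 750 ppm it ran from 9.67 through 10.25 to 10.60, and in the 8 controls from 9.19 through 9.68 to 10.35. The doses overlapped at the edges of their ranges, and 10 of the 16 animals at 750 ppm lay above every animal at 250 ppm. The difference of 0.69 ± 0.09 had an adjusted p of 2.61e-05. Within each combination of sex and period, all 4 animals at 750 ppm lay above all 4 at 250 ppm. Their means differed by 0.65 in perinatal males, 0.99 in postnatal males, 0.43 in perinatal females and 0.68 in postnatal females.

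Nr4a1, the orphan receptor also called Nur77, ran from 8.72 through 9.12 to 9.59 at 250 ppm and from 9.24 through 9.69 to 10.15 at 750 ppm, with controls from 8.86 through 9.31 to 9.84. The doses overlapped, with 9 of 16 animals at 750 ppm above every animal at 250 ppm. The difference was 0.49 ± 0.08 (adjusted p = 0.00104). It was positive in all 4 combinations of sex and period, from 0.40 in perinatal females to 0.62 in postnatal males.

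Arc ran from 9.49 through 9.94 to 10.28 at 250 ppm and from 9.98 through 10.39 to 10.80 at 750 ppm, with controls from 9.74 through 10.13 to 10.37. Of the animals at 750 ppm, 10 of 16 lay above every animal at 250 ppm. The difference was 0.48 ± 0.08 (adjusted p = 0.00148), between 0.33 in perinatal females and 0.58 in perinatal males. In perinatal females only 1 of 4 animals, at 10.73, lay above all 4 at 250 ppm.

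Npas4 had the widest spread and the highest fold. It ran from 7.38 through 8.17 to 9.28 at 250 ppm and from 7.89 through 9.08 to 9.86 at 750 ppm, with controls from 7.75 through 8.45 to 9.21. Only 5 of 16 animals at 750 ppm lay above every one at 250 ppm, all of them postnatal. The difference was 0.76 ± 0.14 (adjusted p = 0.0133). Perinatal females differed by only 0.12, against 0.91 in perinatal males, 0.88 in postnatal males and 1.12 in postnatal females. Whether the sexes or periods differ in this was not tested.

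Ptgs2 moved against the others and by little, but with little scatter. It ran from 9.98 through 10.04 to 10.23 at 250 ppm and from 9.71 through 9.88 to 10.12 at 750 ppm, while controls lay between 10.01 and 10.15. Of the animals at 750 ppm, 14 of 16 lay below every animal at 250 ppm. The difference of -0.18 ± 0.03 had an adjusted p of 0.00801 and was negative in all 4 combinations of sex and period (-0.27 to -0.09).

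The remaining 4 members were not called between the Fischer doses. Nr4a2 differed by 0.16 ± 0.08 (adjusted p = 0.89), Dusp6, the cytoplasmic phosphatase of ERK, by 0.12 ± 0.05 (0.74), Nr4a3 by 0.04 ± 0.06 and Homer1 by -0.02 ± 0.07. For Homer1 and Nr4a3 the estimates lay within 1 SE of 0.

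**Figure D2:**
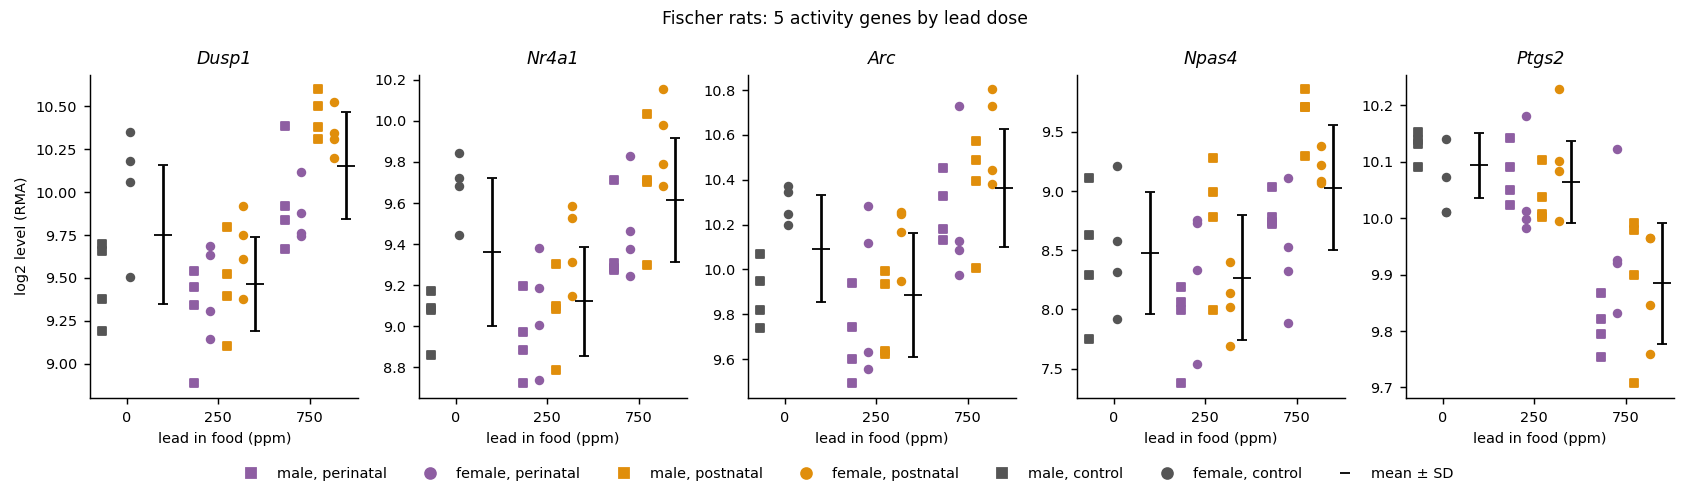
Log2 level of the 5 called genes in each Fischer animal by lead in food (ppm); squares are males, circles females, colours the period, and bars the mean ± SD of all animals at that dose (8 controls, 16 at each lead dose). Dusp1, Nr4a1, Arc and Npas4 were higher at 750 than at 250 ppm with the mean of all controls in between, and Ptgs2 was lower at 750 ppm.

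The levels did not step up from control through 250 to 750 ppm: averaged over sexes and periods, the controls lay between the doses for Dusp1, Nr4a1, Arc and Npas4. Against the 8 controls, the 250 ppm animals differed by -0.29 ± 0.11 in Dusp1, -0.24 ± 0.09 in Nr4a1, -0.21 ± 0.09 in Arc and -0.21 in Npas4. The 750 ppm animals differed by 0.40 ± 0.11, 0.25 ± 0.09, 0.27 ± 0.09 and 0.55 ± 0.18 in the same order. Neither comparison with controls called a probe set (background 0% for each), and limma gave an unadjusted p under 0.05 to 3 of the 9 members at 250 ppm and to 5 at 750 ppm. With all 30 groups in 1 fit, 1 member was called over both comparisons together, and the share of all probe sets called in that fit is not given here. In the fit of Fischer alone, Ptgs2 at 750 ppm differed from control by -0.21 ± 0.04 and was not called (limma's unadjusted p = 8.06e-06, adjusted p = 0.24). The place of the controls also varied with sex and period. In perinatal females the means of both doses lay below the female controls, by -0.15 (750 ppm) and -0.58 (250 ppm) in Dusp1, -0.20 and -0.60 in Nr4a1, -0.06 and -0.39 in Arc and -0.05 and -0.17 in Npas4. In postnatal males both lay above the male controls for Npas4 (1.20 at 750 ppm and 0.32 at 250 ppm) and Nr4a1 (0.64 and 0.02). The comparisons share the control animals.

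Beside the 5 members, 16 probe sets were called between the Fischer doses, and 6 of them belonged to 2 lists of related activity genes. From a list of 17 AP-1, Egr and related immediate early transcription factors (15 measured, by 17 probe sets), 5 rose and 0 fell, with 13 of 17 differences positive and a median of 0.12. They were Fos by 0.44 ± 0.05 (adjusted p = 6.03e-06), Egr2 by 0.35 ± 0.07, Junb by 0.31 ± 0.05, Egr1 by 0.30 ± 0.06 and Klf2 by 0.28 ± 0.05. Of 17 measured activity-induced effector genes (such as Nptx2 and Rgs2), 1 rose, the kinase Sik1 by 0.33 ± 0.06, and the list's median was -0.02. No member was called among 14 inhibitors and targets of ERK signalling (median 0.0055), 12 prostaglandin genes (median -0.0042), 9 Homer partners (median -0.014) or 13 genes of the upstream calcium, ERK and CREB pathway (median -0.027). Among 12 glucocorticoid-induced genes Ddit4 rose by 0.32 ± 0.06, with 8 of 13 probe sets positive and a median of 0.04. Outside the lists, and named after their values were seen, the called genes were the vascular early response gene Apold1 (0.78 ± 0.09), the matricellular gene Ccn1 (0.46 ± 0.09), Nfil3 (0.29 ± 0.05) and Trib1 (0.27 ± 0.04). The remaining 5 of the 21 called probe sets carried no symbol.

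Markers of neighbouring tissue had estimates that leaned one way in the same comparison. All 13 choroid plexus probe sets were higher at 750 than at 250 ppm, with a median of 0.81 and none called. Their mean level ran from 6.69 through 8.63 to 9.55 at 250 ppm and from 6.75 through 9.41 to 10.19 at 750 ppm, so both doses held low and high animals. All 10 meningeal (median 0.15) and all 11 endothelial (median 0.08) markers were also higher, and all 9 hippocampal neuron markers were lower (median -0.07). With the choroid plexus level as a covariate the differences were 0.67 for Dusp1, 0.48 for Nr4a1, 0.48 for Arc, 0.72 for Npas4 and -0.19 for Ptgs2, so 4 were still called and Npas4 was not (adjusted p = 0.064). The part of meninges and vessels in the result was not tested.

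The call of these 5 genes did not rest on 1 animal: all 5 were called with each of the 40 Fischer animals left out. In 1 fit of all 30 groups Npas4 was not called (adjusted p = 0.14). With only the animals of lower, or only those of upper, label numbers (8 against 8), none was called, and the differences kept their direction: Dusp1 0.63 and 0.74, Nr4a1 0.40 and 0.59, Arc 0.40 and 0.56, Npas4 0.69 and 0.83, and Ptgs2 -0.20 and -0.16. Each Fischer treatment had its own run of label numbers (perinatal 250 ppm 3368 to 3376, perinatal 750 ppm 3358 to 3365, postnatal 250 ppm 3188 to 3199, postnatal 750 ppm 3161 to 3168, controls 3219 to 3228). Dose and anything that went with these runs cannot be told apart.

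Averaged over sexes and periods, the dose difference of Fischer rats in Arc, Nr4a1 and Dusp1 exceeded that of both other strains. Compared with Long Evans, the dose difference in Fischer was larger by 0.56 ± 0.11 in Arc (adjusted p = 0.00563), 0.58 ± 0.11 in Nr4a1 (0.00497) and 0.65 ± 0.15 in Dusp1 (0.0232), where 0.192% of all probe sets were called. Compared with Sprague Dawley, it was larger by 0.63 ± 0.11 in Arc, 0.62 ± 0.11 in Nr4a1 and 0.87 ± 0.15 in Dusp1 (each adjusted p = 4.10e-04), and Ptgs2 differed by -0.21 ± 0.05 (0.0204), with a background of 0.0753%. Ptgs2 against Long Evans was not called (-0.13 ± 0.05, adjusted p = 0.37). For Npas4 the differences of 1.08 ± 0.28 and 0.93 ± 0.28 from Long Evans and Sprague Dawley were not called (0.071 and 0.44). Long Evans and Sprague Dawley did not differ by the test in any member (background 0.0342%, no unadjusted p under 0.05), with estimates from -0.15 for Npas4 to 0.21 for Dusp1. These 7 calls were lost within lower or upper label numbers alone. Leaving out single animals ended the call of Dusp1 against Long Evans for Long Evans female postnatal 750 ppm replicate 1 (adjusted p = 0.052), and that of Ptgs2 for any of 4 animals (up to 0.0582).

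**Figure D3:**
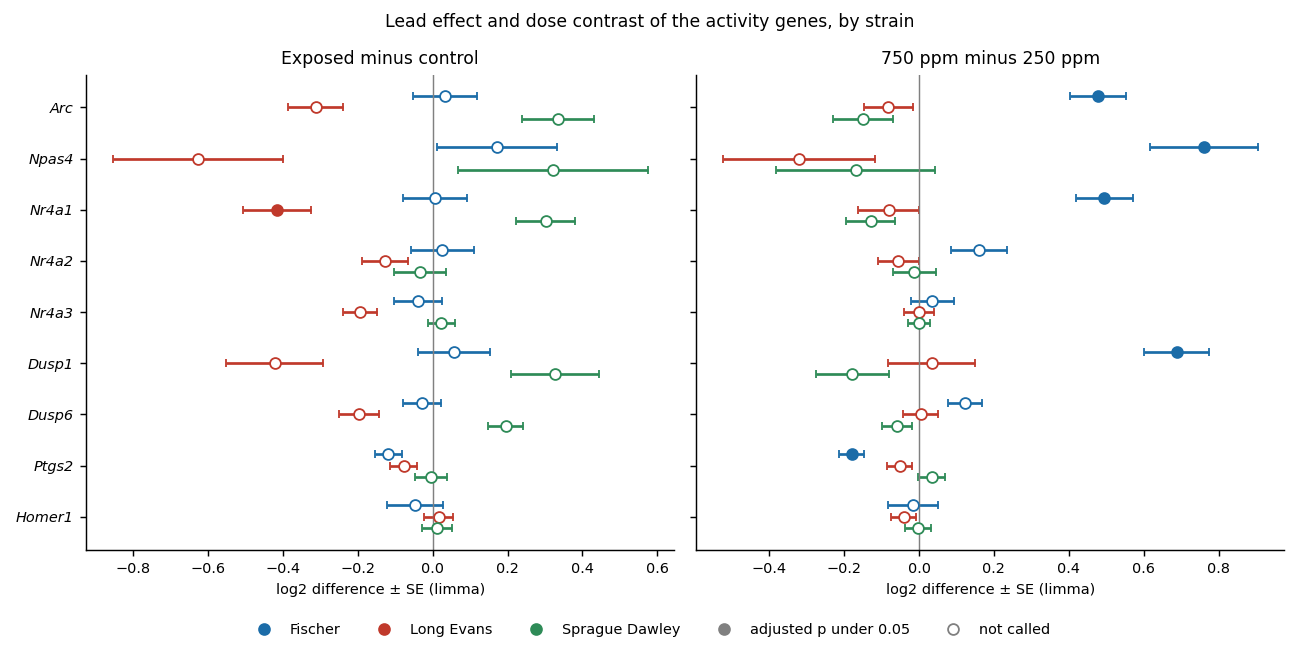
Log2 difference ± SE (limma) of each gene in each strain, exposed minus control on the left (32 animals against 8, or 7 in Sprague Dawley) and 750 minus 250 ppm on the right (16 against 16); filled points were called. In the left panel 8 of the 9 Long Evans estimates lie below 0 and 7 of the 9 Sprague Dawley ones above, and in the right panel the called points are all Fischer.

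Averaged over doses, periods and sexes, exposed animals had lower estimates of most activity genes in Long Evans and higher ones in Sprague Dawley, and 1 of these differences was called. In Long Evans, 8 of the 9 members were lower in exposed animals and 1 was called, Nr4a1, which fell by 0.42 ± 0.09 (32 animals against 8; adjusted p = 0.040), where 0.212% of probe sets were called. In Sprague Dawley 7 of 9 were higher and none was called (background 0.0171%), although limma gave 4 an unadjusted p under 0.05. In Fischer the estimates went both ways, none was called (background 0%), and 1 had an unadjusted p under 0.05 (Ptgs2, -0.12 ± 0.04). The medians of the 9 members were -0.20, 0.19 and 0.0059 in Long Evans, Sprague Dawley and Fischer, beside medians of all probe sets no farther from 0 than -0.0043.

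Nr4a1 in Long Evans ran from 9.37 through a median of 10.17 to 10.30 in the 8 controls and from 9.20 through 9.61 to 10.15 in the 32 exposed animals. All 32 exposed animals lay below the median of the controls, but only 3 lay below every control, since 1 control was low. That low control (female 3, 9.37) was among the arrays whose X-linked genes went against the label. Without the 3 such arrays of Long Evans the difference was -0.50 (adjusted p = 0.033). The call was lost when any of 13 single animals was left out (adjusted p up to 0.12), with differences from -0.52 to -0.37: male controls 1, 2 and 4, female controls 1, 2 and 4, male postnatal 250 ppm replicate 3, male perinatal 750 ppm replicate 4, female perinatal 750 ppm replicates 1 and 2, male postnatal 750 ppm replicates 2 and 3, and female postnatal 750 ppm replicate 4. It was also lost with array weights (adjusted p = 0.059) and within label-number sets (-0.59 in the lower, -0.24 in the upper).

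Other members had estimates in the same direction in Long Evans, short of the threshold. Arc differed by -0.31 ± 0.07 (adjusted p = 0.064), with 30 of 32 exposed animals below the control median and 8 below every control. Nr4a3 differed by -0.19 ± 0.05 (0.065; 31 of 32 below the control median), Dusp6 by -0.20 ± 0.05 (0.12; 19 of 32 below every control), Dusp1 by -0.42 ± 0.13 (0.23) and Npas4 by -0.63 ± 0.23 (0.40; 16 of 32 below every control). Nr4a2 (-0.13), Ptgs2 (-0.08) and Homer1 (0.02) differed less. A stricter filter on low levels or 1 fit of all groups called 3 members each. They were Arc, Nr4a1 and Nr4a3 in the former and Nr4a1, Nr4a3 and Dusp6 in the latter. The share of all probe sets called under these settings is not given here, so these counts have no background.

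The estimates of Arc and Nr4a1 in Long Evans were farther below 0 in males, and those of Ptgs2 in females. Against the male controls, Arc differed by -0.51 ± 0.13 after perinatal 250 ppm, -0.60 ± 0.13 after perinatal 750 ppm, -0.53 ± 0.13 after postnatal 250 ppm and -0.45 ± 0.13 after postnatal 750 ppm, and Nr4a1 by -0.57, -0.59, -0.57 and -0.55. Against the female controls, in the same order, Arc differed by 0.04, -0.10, -0.09 and -0.26 and Nr4a1 by -0.09, -0.30, -0.27 and -0.39. Ptgs2 differed by -0.19, -0.18, -0.04 and -0.12 in females and by -0.02, -0.02, 0.04 and -0.09 in males. None of these was called; the smallest adjusted p of Arc was 0.085. The sex difference of the lead effect was not called for any member in any strain (backgrounds 0% in Fischer, 0% in Long Evans and 0.00342% in Sprague Dawley), with 2, 1 and 0 of the 9 at an unadjusted p under 0.05. Of the 8 Long Evans controls, 3 (male 4 and females 1 and 3) had X-linked genes against their sex label. Without them the female differences of Nr4a1 were -0.28, -0.49, -0.46 and -0.58 and those of Arc -0.13, -0.26, -0.25 and -0.43, so the sex difference of the lead effect (female minus male) moved from 0.31 to 0.10 for Nr4a1 and from 0.42 to 0.25 for Arc. For Ptgs2 it moved from -0.11 to -0.18. The 4 comparisons of a sex share their controls, and over the 8 single comparisons of Long Evans (background 0.0424%) no member was called.

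In Sprague Dawley the mean differences were 0.33 ± 0.10 for Arc, 0.33 ± 0.12 for Dusp1, 0.32 ± 0.25 for Npas4, 0.30 ± 0.08 for Nr4a1 and 0.19 ± 0.05 for Dusp6. They were uneven over the treatments. The 8 animals with perinatal 250 ppm had Arc from 9.65 through 10.41 to 10.60, while the 24 other exposed animals ran from 9.41 through 9.84 to 10.36. Nr4a1 ran from 9.03 through 9.67 to 9.94 in the former and from 8.93 through 9.14 to 9.62 in the latter. The treatment was singled out after its values were seen. The mean differences were also larger in lower than in upper label numbers: 0.52 and 0.17 for Arc, 0.49 and 0.13 for Nr4a1, 0.51 and 0.13 for Dusp1 and 0.28 and 0.14 for Dusp6, while Npas4 turned sign (0.88 and -0.05). Of the male controls, the lower set held only male control 1, whose Npas4 (7.47) was the lowest of the strain's controls. It also held female control 2, whose X-linked genes went against its label.

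Against the 3 male controls, Sprague Dawley males after perinatal 250 ppm held 2 called members, of 0.0274% of probe sets in that comparison and 0.00813% over the 8 of the strain. Arc was 10.40, 10.05, 10.60 and 10.43 in the exposed males and 9.42, 9.35 and 9.67 in the controls, 0.89 ± 0.17 higher (adjusted p = 0.048). Nr4a1 was 9.61, 9.41, 9.65 and 9.68 in the exposed males and 8.75, 8.78 and 8.99 in the controls, 0.75 ± 0.14 higher (0.0385). The groups did not overlap for either gene, and how many other probe sets separated these 4 and 3 animals as fully was not counted. Dusp1 (0.90 ± 0.21, adjusted p = 0.23), Dusp6 (0.42 ± 0.09, 0.084) and Npas4 (1.31 ± 0.46) had estimates in the same direction without a call. In females of the same treatment Arc was 10.43, 10.59, 10.36 and 9.65, 0.53 ± 0.16 above the 4 controls, and Nr4a1 0.54 ± 0.13 above, neither called (adjusted p = 0.99 and 0.65). The 2 calls in males were fragile. Arc's was lost without any of 30 of the 39 Sprague Dawley animals (adjusted p up to 0.38) and Nr4a1's without any of 16 (up to 0.37). Without the 5 arrays of the strain that went against their sex label both were lost, with the same differences since none of these arrays was in either group.

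The difference between exposed and control animals was itself different between Long Evans and Sprague Dawley. The difference between the strains' mean effects was -0.72 ± 0.12 for Nr4a1 (adjusted p = 5.86e-04), -0.65 ± 0.12 for Arc (0.00314), -0.39 ± 0.07 for Dusp6 (0.00193) and -0.75 ± 0.17 for Dusp1 (0.0338), so 4 of 9 members were called against a background of 0.0787%. Neither strain differed from Fischer in a called member (backgrounds 0.13% and 0.0103%), although 6 and 4 of the 9 had an unadjusted p under 0.05. The 4 calls were kept without the arrays against their sex label and with the choroid plexus covariate, whose 13 markers were all lower in this comparison (median -0.55). The size depended on the label-number set. In lower and upper numbers it was -1.08 and -0.38 for Nr4a1, -0.93 and -0.38 for Arc, -0.58 and -0.24 for Dusp6 and -1.13 and -0.36 for Dusp1. Of the Sprague Dawley male controls, the lower set held only male control 1. Within upper label numbers none of the 4 was called. The call of Dusp1 was lost without any of 11 control animals (Long Evans males 1, 2 and 3 and females 1, 2 and 4; Sprague Dawley males 1, 2 and 3 and females 1 and 2; adjusted p up to 0.13). The controls of these strains also stood at opposite ends of the order of levels (above): the means of Arc were 10.75 in controls and 10.44 in exposed animals of Long Evans, and 9.60 and 9.94 in Sprague Dawley. The treatments also lay in separate runs of label numbers. Long Evans controls had 1970 to 1977, and its exposed groups 2821 to 2876 or 3444 to 3447, apart from the perinatal 750 ppm females (1978 to 1981), in which Nr4a1 differed from control by -0.30 ± 0.16 and Arc by -0.10 ± 0.13. Sprague Dawley controls had 3971 to 3978, and the perinatal 250 ppm groups stood apart at 4046 to 4053. Lead and anything that went with these runs cannot be told apart in either strain.

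The activity-related lists gave few calls for the mean lead effect. Of the 17 AP-1 and Egr probe sets, 16 were lower in exposed Long Evans (median -0.12) and 1 was called, Junb at -0.31 ± 0.07 (adjusted p = 0.040), while Egr2 (-0.37 ± 0.09, 0.074), Fos (-0.37 ± 0.12, 0.30) and Egr1 (-0.20 ± 0.06, 0.23) were not. In Sprague Dawley 11 of 17 were higher (median 0.02) and in Fischer 3 of 17 (median -0.04), with no call. No call fell in the effector, ERK feedback, prostaglandin, Homer partner or upstream lists in any strain, and their medians lay between -0.04 and 0.02. The glucocorticoid list went the other way in Long Evans: 12 of 13 probe sets were higher, with a median of 0.13, and the metallothionein Mt2A rose by 0.19 (adjusted p = 0.048). Choroid plexus markers were lower in exposed Long Evans (0 of 13 positive, median -0.37) and higher in exposed Sprague Dawley (13 of 13, median 0.25), without a call. With that level as a covariate Nr4a1 in Long Evans differed by -0.42, as without it.

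In single Fischer groups, 1 member was called over 8 comparisons with the control of the same sex (background 0.00214%). Dusp1 in males after postnatal 750 ppm was 10.60, 10.50, 10.38 and 10.31, against 9.38, 9.70, 9.19 and 9.66 in male controls. The groups did not overlap, and how many other probe sets separated them as fully was not counted. The difference was 0.97 ± 0.17 (adjusted p = 0.0201), with 0.0137% of probe sets called in that comparison. In the same males Npas4 differed by 1.20 ± 0.29 (0.44), Nr4a1 by 0.64 ± 0.15 (0.43) and Arc by 0.47 ± 0.15 (0.90), with no call. The Dusp1 call was lost without male control 1 or 3 or exposed male 1, 2 or 3 (adjusted p up to 0.26) and in 1 fit of all groups.

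Neither period nor sex gave a called member. Perinatal minus postnatal differences in Fischer were -0.53 ± 0.14 for Npas4, -0.33 ± 0.09 for Dusp1, -0.29 ± 0.08 for Nr4a1 and -0.20 ± 0.08 for Arc, each with an unadjusted p under 0.05 from limma (background 0.00342%; 4 of 9 members). In Sprague Dawley they had the opposite sign, 0.27 ± 0.10 for Dusp1, 0.23 ± 0.08 for Arc, 0.19 ± 0.07 for Nr4a1 and 0.11 ± 0.04 for Dusp6 (background 0.0411%; 5 of 9), and in Long Evans only Npas4 (-0.48 ± 0.20) had such a p (background 0.065%). That strain difference was not tested. The estimates of Arc for females minus males were 0.23 ± 0.07 in Fischer and 0.21 ± 0.06 in Long Evans, short of the threshold (adjusted p = 0.40 and 0.11). By adjusted p, the sex comparison called 0.0822% of all probe sets in Fischer, 0.0856% in Long Evans and 0.0171% in Sprague Dawley. An unadjusted p under 0.05 from limma was held by 2, 6 and 0 of the 9 members, counts for which no share over all probe sets is given.

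Label-number sets gave called members in Fischer only, and there near the share of all probe sets. In Fischer, animals with upper numbers had Homer1 higher by 0.28, and Nr4a2 lower by -0.31, Nr4a3 by -0.27, Dusp1 by -0.23 and Nr4a1 by -0.16, so 5 of 9 members were called where 60.9% of all probe sets were. No member was called between these sets in Long Evans (background 0.0993%) or Sprague Dawley (18.9%), where limma gave 0 and 3 of the 9 an unadjusted p under 0.05. Each group held both sets in equal or nearly equal number.

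Animals that were high in one activity gene tended to be high in a core of others. Deviations from the group mean were correlated over all animals for all 36 pairs of members, with permutations within groups (100000, smallest possible p 1e-05) and adjustment over the 36. Arc and Nr4a1 had the closest relation (Pearson's r = 0.86, Spearman's rho = 0.84, adjusted permutation p = 6e-05 for each), and r was 0.85 without the 2 animals farthest from the median of Arc. Within strains it was 0.84 in Fischer, 0.92 in Long Evans and 0.85 in Sprague Dawley. Nr4a1 and Dusp1 reached 0.80 (rho 0.80), Arc and Dusp1 0.76 (0.75), Npas4 and Dusp1 0.63 (0.61) and Arc and Npas4 0.62 (0.63), each with the same adjusted p. So Arc, Nr4a1, Dusp1 and Npas4 formed 1 core, with Arc and Dusp6 at 0.49 (rho 0.47, adjusted permutation p = 1.20e-04) at its side.

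**Figure D4:**
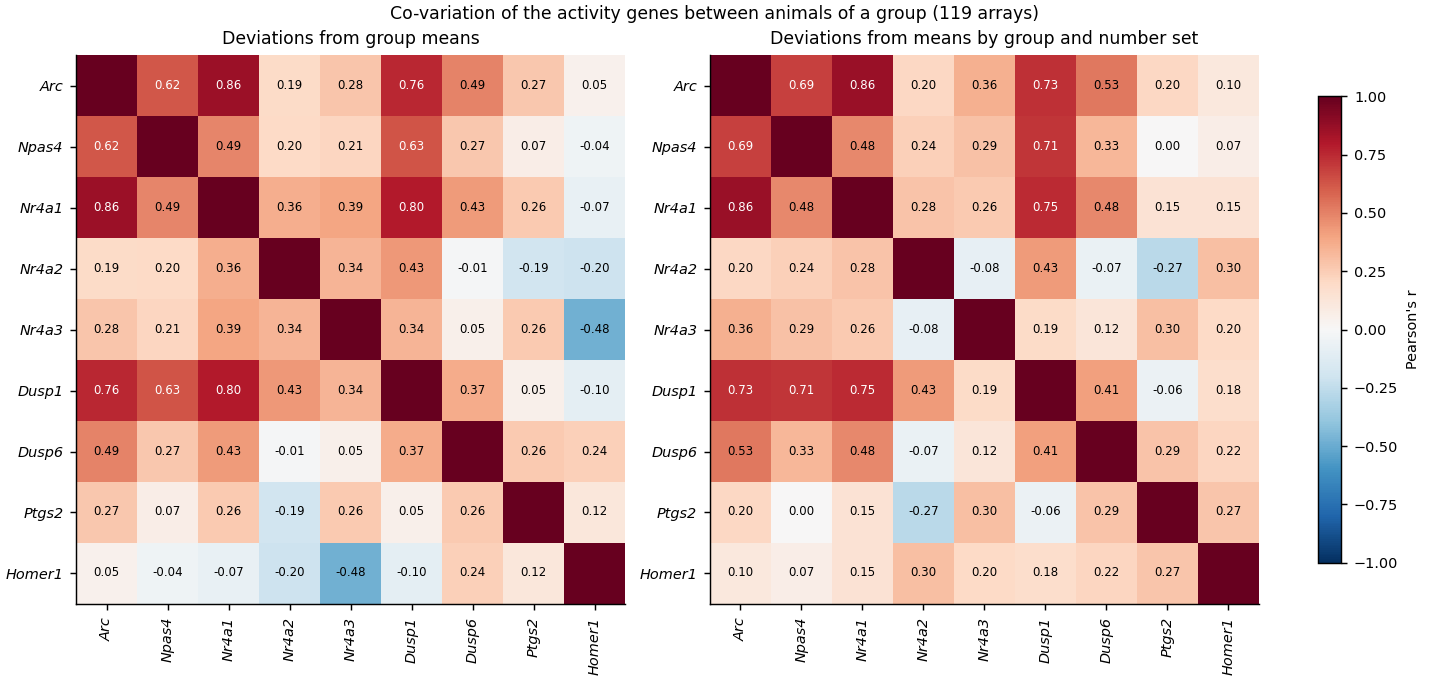
Pearson's r between the genes over all animals, from deviations from group means (left) and from means by group and label-number set (right). The block of Arc, Npas4, Nr4a1 and Dusp1 is the same in both panels to the eye, while Nr4a3 with Homer1 turns from -0.48 to 0.20.

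In all, 23 of 36 pairs were called, and 13 when deviations were taken within group and label-number set, which leaves pairs of animals in most groups. Without the 8 arrays against their sex label 16 were called. The share of all gene pairs on the array that would be called was not computed, so these counts have no background. Nr4a3 and Homer1 showed the one called negative relation (r = -0.48, rho = -0.46). It stood at -0.80 in Fischer, -0.13 in Long Evans and 0.33 in Sprague Dawley. Within group and number set, over all strains, it was 0.20 (adjusted permutation p = 0.23), so no negative relation was left there. Nr4a2 and Nr4a3 likewise went from 0.34 to -0.08. Arc and Nr4a1 stayed at 0.86.

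**Figure D5:**
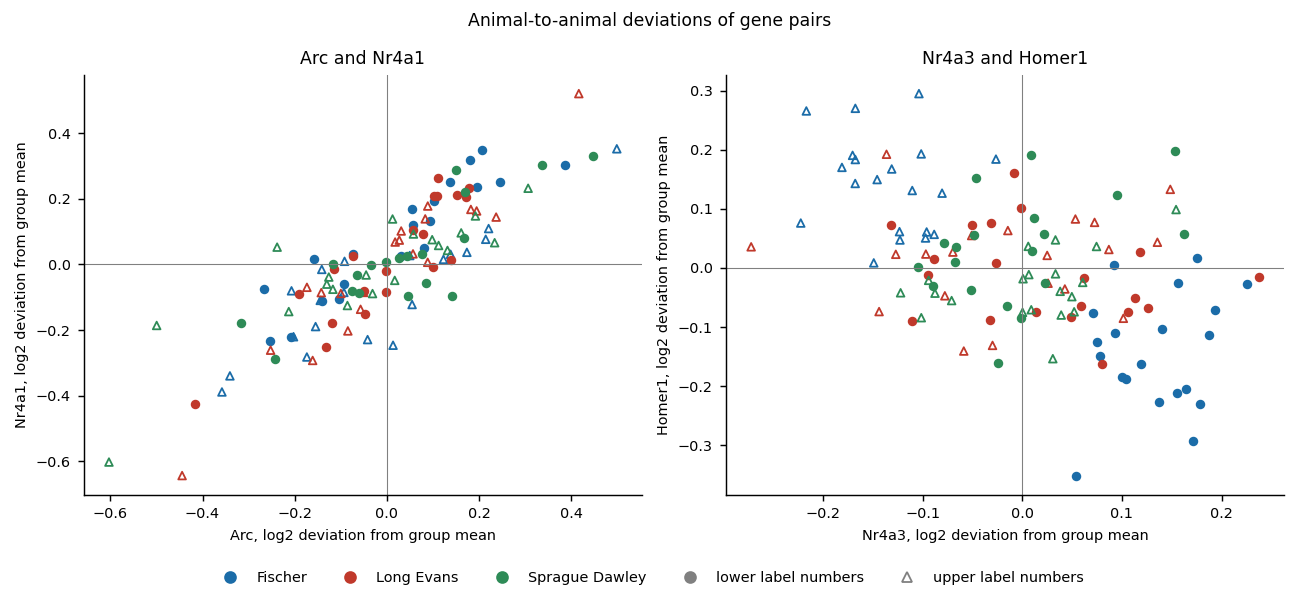
Deviation from the group mean (log2) of each animal for Arc against Nr4a1 (left) and Nr4a3 against Homer1 (right), coloured by strain, with filled circles for lower and open triangles for upper label numbers. Animals of all strains lie along 1 line on the left (r = 0.86), while on the right the Fischer animals separate by label number.

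Among genes with a symbol that were not members themselves, those whose deviations were most like the core were other immediate early genes. Nearest to Arc were Junb (r = 0.70), Fos (0.66) and Egr1 (0.64), to Npas4 Fos (0.70), Junb (0.69) and Egr1 (0.60), to Nr4a1 Junb (0.72), Egr1 (0.70) and Sik1 (0.64), and to Dusp1 Apold1 (0.73), Egr1 (0.70) and Junb (0.67), over all animals. In Sprague Dawley Junb was less close to Arc (0.47), Nr4a1 (0.42) and Dusp1 (0.43) than in the other strains, but closer to Npas4 (0.82). Taken within group and label-number set, Junb was nearest to Arc (0.82), Npas4 (0.73) and Nr4a1 (0.77), and Apold1 to Dusp1 (0.80). The other members had other neighbours. Nr4a2 was nearest to the nicotinic receptor subunit Chrna4 (0.86), the glutamate receptor Grm4 (0.85) and the homeobox gene Meis2 (0.83), with Grm4 at 0.78 within number sets. Homer1 was nearest to Hycc2 (0.90; 0.81 within number sets), Slc25a46 (0.89) and Naa15 (0.88). Nr4a3 was nearest to Egr3 (0.79), which was 0.94 in Fischer and 0.38 in Sprague Dawley. Within group and number set the value for Egr3 was only 0.49, and Aig1 was nearest (0.54). For Dusp6 (Med6, 0.54) and Ptgs2 (Filip1, 0.47) no gene came close. These likenesses are descriptions across arrays that share their processing.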

How the data were processed

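Arrays gave 29214 probe sets in 40 Fischer, 40 Long Evans and 39 Sprague Dawley samples. The deposited values were log2 levels from RMA and Partek, per the submitters' processing notes. The sources used here do not give versions, the order of these steps or whether batches were corrected. Groups came from the titles and characteristics. Of the probe sets, 15310 carried 1 gene symbol in GEO's platform annotation, 323 several and 13581 none, and only the first kind was named.

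Group means were fitted per strain with limma 3.58.1 in R 4.3.3 (reading in with data.table, version 1.17.8), and in 1 fit of all 30 groups for strain differences. Moderated tests were two-sided, adjusted by Benjamini-Hochberg over all probe sets, with calls at an adjusted p under 0.05. Correlations used numpy 2.4.6, pandas 2.3.3 and scipy 1.17.1 in Python 3.11.15 with 100000 permutations within groups, and figures matplotlib 3.10.9. Scripts were tested on simulated data. The number of arrays limits the precision.

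The members and gene lists were chosen with earlier results of these data known. The lists held related immediate early genes, effectors, ERK feedback, prostaglandin, Homer, upstream and glucocorticoid genes, and markers of hippocampal neurons, choroid plexus, meninges, endothelium, red blood cells, neocortex, striatum and thalamus. Beyond the members, the rule named the genes of each list called in a strain's mean lead effect, or else those with the 2 smallest p-values, and the 3 genes most like each member by correlation. Other genes of the Fischer dose comparison were named after their values were seen. For the Fischer dose comparison, red blood cell markers (4 of 4 positive, median 0.14), striatal (6 of 7, 0.04), thalamic (5 of 5, 0.16) and neocortical ones (0 of 3, -0.06) held no call.

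Alternatives were a further quantile normalization, a filter at the 40th percentile of mean level, the choroid plexus score added as a covariate, array weights, label-number sets as a block, 1 fit of all groups, leaving out the 8 arrays against their sex label, and leaving out each animal. The strain comparison of the dose contrast, the Fischer doses against control and the use of lower or upper label numbers alone were added after the data were seen.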

Additional observations from a re-analysis of the deposited data

Results flagged for a closer look

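In 15 of 261 sets of a gene and a group of 4 animals (5.75%), 1 animal lay apart from the other 3 by Dixon's 95% criterion. Chance alone marks about 1 in 20 such sets. Long Evans female control 3, whose X-linked genes went against its label, was low in Arc (10.24), Nr4a1 (9.37) and Dusp1 (9.62) at once. Npas4 was low in Long Evans female postnatal 750 ppm replicate 1 (8.15), Long Evans male perinatal 750 ppm replicate 4 (7.62) and Sprague Dawley female perinatal 250 ppm replicate 4 (8.36). Dusp6 was low in Long Evans male perinatal 750 ppm replicate 1 (9.31) and male postnatal 750 ppm replicate 2 (9.67), and high in Sprague Dawley female postnatal 250 ppm replicate 1 (9.99). Homer1 was low in Long Evans male postnatal 250 ppm replicate 1 (9.39) and high in Sprague Dawley female perinatal 750 ppm replicate 1 (9.74) and male postnatal 250 ppm replicate 3 (9.62). Ptgs2 was high in Fischer female perinatal 250 ppm replicate 2 (10.18), Nr4a1 in Fischer male perinatal 750 ppm replicate 1 (9.71) and Dusp1 in Sprague Dawley female postnatal 250 ppm replicate 3 (9.67).

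Strains differed in 11 effects of the same comparison, by limma's test of the difference itself. The mean lead effect of Long Evans minus that of Sprague Dawley was -0.65 for Arc, -0.72 for Nr4a1, -0.75 for Dusp1 and -0.39 for Dusp6. The difference of 750 minus 250 ppm in Fischer exceeded that in Long Evans by 0.56 for Arc, 0.58 for Nr4a1 and 0.65 for Dusp1. It exceeded that in Sprague Dawley by 0.63 for Arc, 0.62 for Nr4a1 and 0.87 for Dusp1, and was lower by -0.21 for Ptgs2.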

How the results depend on the processing

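In all, 214 counts of called members or pairs were recomputed under an alternative other than leaving out an animal. Of these, 187 stayed within 1.5 times, 17 fell and 10 rose. Counts of 0 that stayed at 0 are among the 187, so that number does not measure how often calls were kept. Of 438 single values, 361 kept their direction and call, 75 lost the call and 2 turned sign. Called members with only lower and only upper label numbers, which hold 2 animals of each group at most, were 0 and 0 for the Fischer dose contrast (5 otherwise), the Fischer single comparisons (1), the Long Evans mean effect (1) and the strain differences of the dose contrast (7). They were 0 and 1 for the Sprague Dawley single comparisons (2), and 0 with upper numbers for the strain differences of the lead effect (4). One fit of all groups called 1 member for the Fischer doses against control (0), 0 in the Fischer single comparisons and 3 for the Long Evans mean effect. The filter on low levels called 3 for that effect, 1 for the Long Evans sex contrast (0) and 1 for its single comparisons (0), and array weights 0, 1 and 0. The choroid plexus covariate and the label-number block each called 1 for the Long Evans sex contrast, and the block 1 for the Fischer sex contrast (0). For the Sprague Dawley single comparisons quantile normalization called 0, array weights 4, the covariate 1 and leaving out arrays against their sex label 0. With deviations by group and number set 13 pairs were called (23), and Nr4a2 with Nr4a3 (-0.079) and Nr4a3 with Homer1 (0.20) turned sign. With each animal left out, called members ranged from 5 to 5 for the Fischer dose contrast and the Fischer number sets, 0 to 1 for the Fischer, 0 to 1 for the Long Evans and 0 to 4 for the Sprague Dawley single comparisons, 0 to 3 for the Long Evans mean effect, 0 to 1 for its sex contrast, and 0 to 1 for the Sprague Dawley mean effect and number sets. They ranged from 18 to 20 for strain differences of controls, 6 to 8 for those of the dose contrast and 3 to 5 for those of the lead effect. Fewer animals were tested within number sets, and the cause of the other changes was not tested. The share of all probe sets called under each alternative is not given here, so these counts have no background. No paired analysis was possible because each animal has its own label number, which no other group shares.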
